A study of Mus musculus with 10 samples.

Results

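The proteasome genes of mouse splenic B cells were followed across 2 cell types and 2 genotypes. They were chosen by name, as every row of the deposited table whose Entrez identifier maps to a symbol that starts with Psma to Psmg and a digit, and the rule used no measured value. It found 48 genes among the 9690 of the table. Of these, 7 encode the alpha ring and 7 the constitutive beta ring of the core particle, 3 the immunoproteasome subunits Psmb8, Psmb9 and Psmb10, 6 the ATPases and 11 the other subunits of the regulatory particle. The rest were 5 genes of activators, the inhibitor Psmf1, 7 assembly factors, and Psme3ip1, which shares the name pattern but encodes a protein that binds an activator. Another 3 protein-coding genes of the same name pattern in the annotation, Psmb11, Psma8 and Psmc3ip, were not analysed here.

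RNA was sequenced from unstimulated B cells sorted from spleens of female C57BL/6J mice, in 10 libraries of 50000 cells each. Marginal zone B cells (MZB), which sit at the border of the white pulp, were sorted as B220+ CD23- CD21hi CD1d+ cells, and follicular B cells (FoB), which recirculate through the follicles, as B220+ CD23+ CD21mid CD1d- cells. Both sorts also required the absence of Thy1.1, F4/80, CD11b, CD93 and GL7. There were 3 wild-type and 2 LSD1 knockout libraries of MZB, and 2 wild-type and 3 knockout libraries of FoB. LSD1 is a histone demethylase encoded by Kdm1a. Ages, the means of deletion (such as a Cre line) and the deleted exons are not stated in the labels. Nothing in the labels ties a library to an animal, so the p-values below reflect how much libraries within groups vary, and part of that variation may be technical. The spread behind them was pooled over the groups and moderated toward that of other genes.

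The proteasome is the protease that degrades ubiquitin-tagged proteins. Its barrel-shaped core is built of alpha rings, which gate the entrance, and beta rings, which carry the proteolytic sites of Psmb6, Psmb7 and Psmb5. Lymphocytes and cells exposed to interferon make Psmb9, Psmb10 and Psmb8, which take the places of those 3 subunits in the immunoproteasome and favour peptides that class I molecules can present. A regulatory particle recognises, unfolds and feeds the substrate, activators such as the Psme1 and Psme2 complex open the gate without ubiquitin, and dedicated chaperones assemble the particles.

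Psmb9 and Psmb8 lie beside the peptide transporter genes Tap1 and Tap2 in the class II region of the major histocompatibility complex. In GRCm38.p6 Psmb9 (Entrez 16912) covers chr17:34182030-34187330 and Psmb8 (Entrez 16913) chr17:34198195-34201454. Psmb9 and Tap1 are separated by 225 bases, and Psmb8 starts 969 bases after the end of Tap1. The start regions below, each 250 bases before to 50 after a RefSeq start of GRCm38.p6, are shown because Psmb9 departed from Psmb8 in the values that follow and because Psme1 departed from its partner Psme2. The Psmb9 window, read on the minus strand from chr17:34187281-34187580, also holds the start of Tap1. The Psmb8 window lies at chr17:34197945-34198244 on the plus strand, and the Psme1 window at chr14:55578244-55578543 on the plus strand. Capitals mark the match to a CCAAT box in Psmb9, to a gamma-activated site in Psmb8 and to an interferon-stimulated response element in Psme1, the CCAAT box and the response element being on the strand opposite to the printed one.
Psmb9: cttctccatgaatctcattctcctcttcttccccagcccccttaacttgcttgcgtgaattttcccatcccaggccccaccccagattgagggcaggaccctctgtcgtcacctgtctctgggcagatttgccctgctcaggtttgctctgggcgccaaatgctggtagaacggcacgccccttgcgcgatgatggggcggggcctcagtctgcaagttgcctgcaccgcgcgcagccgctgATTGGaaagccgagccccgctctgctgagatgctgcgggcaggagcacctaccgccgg
Psmb8: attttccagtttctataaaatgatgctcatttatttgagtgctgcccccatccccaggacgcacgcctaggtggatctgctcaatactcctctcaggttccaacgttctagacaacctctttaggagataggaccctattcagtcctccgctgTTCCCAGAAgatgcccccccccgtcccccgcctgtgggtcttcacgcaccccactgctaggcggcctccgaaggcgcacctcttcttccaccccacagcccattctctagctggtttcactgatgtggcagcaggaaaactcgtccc
Psme1: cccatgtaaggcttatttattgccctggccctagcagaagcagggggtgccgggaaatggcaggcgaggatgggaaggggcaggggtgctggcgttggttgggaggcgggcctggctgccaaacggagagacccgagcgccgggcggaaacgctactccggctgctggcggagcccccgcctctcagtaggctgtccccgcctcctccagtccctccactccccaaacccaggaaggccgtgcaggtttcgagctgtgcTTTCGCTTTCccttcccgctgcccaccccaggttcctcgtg
A start region was found for 41 of the 48 genes, all but Psmb1, Psmb2, Psmb7, Psmc3, Psmd3, Psmd7 and Psmg2. The interferon-stimulated response element was searched on both strands as GAAA, any 2 bases and GAAA, and matched 5 of the 41 (12.2%), in Psmb3, Psmd4, Psmd9, Psme1 and Psmg4, against 4.0% of all 27025 genes with such a window. The other motifs were also searched on both strands. The gamma-activated site, TTCNNNGAA, matched 3 (7.3%), in Psmb8, Psmd2 and Psmg1, against 9.6%. The antioxidant response element, TGANNNNGC, to which the proteasome regulators Nfe2l1 and Nfe2l2 are known to bind, matched 23 (56.1%) against 45.0%, and the CCAAT box, CCAAT, matched 14 (34.1%) against 41.1%. Among the 7753 genes of the deposited table with such a window, the shares were 3.9%, 8.4%, 47.7% and 43.4% in the same order. Psmb8 and Psmb9 also hold matches to the antioxidant motif, which are not in capitals. No match marked in capitals overlapped another such match. These are matches of letters and were not tested as sites.

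Values are the authors' mRNA per cell. They are whole reads scaled per gene and library, and the 10 libraries held 4161051 to 6711847 reads. The proteasome gene with the fewest reads in any library was Psmg4 with 31, and 45 of the 48 genes had at least 50 reads in each library. Because total mRNA per cell differed between cell types, each comparison was made per cell and again after rescaling, in which the libraries were brought to a common level with trimmed mean log-ratios and a difference is relative to other genes. In these bulk samples, fewer cells of a type and less RNA per cell cannot be told apart. The MZB markers Cr2, Cd1d1, Dtx1, Myof, Cd9 and S1pr3 summed to 402.79 to 484.98 mRNA per cell in MZB and 43.25 to 59.62 in FoB, and all 6 B cell markers were present. Of the markers of other cells, 1 of 6 for T cells (Lck), 3 of 6 for macrophages and monocytes (Cd68, Itgam and Ly6c2), 2 of 4 for dendritic cells (Flt3 and Cst3), 1 of 4 for plasma cells (Xbp1), 1 of 2 for platelets (Itgb3) and 0 for NK cells, neutrophils and erythroid cells were among the genes analysed. Kdm1a stood at 5.38 and 5.94 mRNA per cell in knockout MZB against 6.37, 8.37 and 7.90 in wild type, and at 2.04, 2.36 and 1.93 in knockout FoB against 5.58 and 4.34.

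Proteasome mRNA took a similar share of the measured mRNA in all 10 libraries. The 48 genes summed to 493, 684 and 618 mRNA per cell in the wild-type MZB libraries, 720 and 862 in knockout MZB, 396 and 316 in wild-type FoB, and 328, 414 and 296 in knockout FoB. Each MZB library was above each FoB library, and both knockout MZB libraries were above the wild-type ones. As a share of the summed table the same genes took 0.659% to 0.685% in wild-type MZB, 0.682% and 0.712% in knockout MZB, 0.698% and 0.702% in wild-type FoB, and 0.680% to 0.744% in knockout FoB. The wild-type MZB shares lay below both wild-type FoB shares, and knockout FoB library 2 stood highest.

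**Figure D1:**
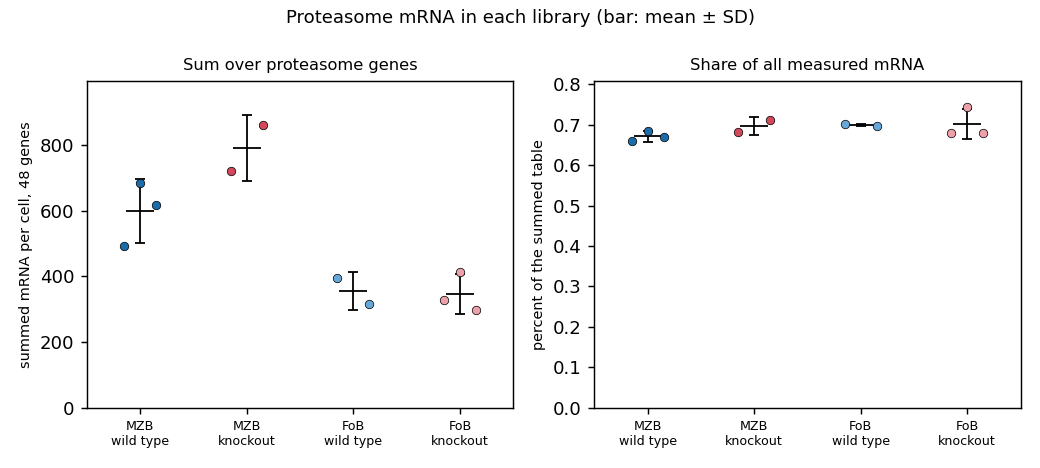
Summed mRNA per cell of the 48 proteasome genes (left) and their percent of the summed table (right) in each library, by cell type and genotype; points are libraries and bars the mean ± SD. The sums separate MZB from FoB, while the shares stay between 0.659% and 0.744%.

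Among the members, 1 activator subunit and 1 immunoproteasome subunit were the most abundant. Over the 10 libraries Psme1, the alpha subunit of the interferon-inducible activator, averaged 40.1 mRNA per cell and Psmb8, the chymotrypsin-like immunosubunit, 38.0, followed by Psmb9 at 26.9 and Psme2 at 25.8. The lowest were the base chaperone Psmd9 at 1.46 and the inhibitor Psmf1 at 1.59. Levels of different genes depend on the length that the authors' values divide by. For 35 of 47 members that length was within 1.5-fold of the GENCODE exon length, but for Psmb2, Psmb3 and Psmb7 it was 2.74, 2.47 and 2.78 times it, and for Psma2, Psmb1 and Psmd5 it was 0.32, 0.30 and 0.47 times it. On GENCODE lengths Psme1 (35.3) and Psmb8 (28.5) still led and Psmd9 (1.45) was still lowest, while Psma2 moved from 16.2 to 5.26 and Psmb1 from 19.8 to 6.00. Ratios of a gene's values between libraries are not touched by the length. The tested log2 differences and p-values can be, since 0.3 was added to each value and the spread was fitted to the level.

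The ratio of immunoproteasome subunit to constitutive counterpart was highest at the Psmb8 position, on the deposited and on GENCODE lengths. Psmb8 reached 33.5, 47.5 and 45.5 mRNA per cell in wild-type MZB, 52.9 and 62.4 in knockout MZB, 32.0 and 24.6 in wild-type FoB, and 25.4, 33.9 and 21.9 in knockout FoB. Its counterpart Psmb5 reached 6.09, 8.06 and 8.14, then 9.97 and 11.3, then 5.23 and 4.74, then 5.20, 6.93 and 4.40 in the same order. For Psmb8 the MZB and FoB libraries overlapped, since wild-type MZB library 1 lay below knockout FoB library 2, and the same libraries overlapped for Psmb5. The ratio Psmb8/Psmb5 was 4.87 to 6.13 in FoB and 5.31 to 5.89 in MZB, with overlap. On GENCODE lengths it was 3.78 to 4.75 over all libraries.

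Psmb9, the immunosubunit that takes the place of Psmb6, did not overlap between the cell types, unlike Psmb8 and Psmb10. It stood at 27.7, 33.3 and 34.1 mRNA per cell in wild-type MZB, 43.4 and 52.0 in knockout MZB, 17.8 and 14.3 in wild-type FoB, and 14.97, 18.5 and 12.7 in knockout FoB. Each MZB library was above each FoB library, and both knockout MZB libraries were above the wild-type MZB libraries. Such separation was usual per cell. In wild type, 41 of the 48 genes and 8185 of all 9690 were higher in each MZB library. In knockout these numbers were 48 and 9444. Psmb6, the counterpart of Psmb9, stood at 8.49, 12.9 and 12.0, then 12.9 and 15.7, then 8.70 and 6.74, then 6.89, 9.70 and 6.42 in that order, so that MZB and FoB overlapped. The ratio Psmb9/Psmb6 was 2.58 to 3.36 in MZB and 1.91 to 2.17 in FoB, with no overlap and 1.5 times higher on average in MZB. On GENCODE lengths its range was 0.877 to 1.54, so whether Psmb9 mRNA exceeded Psmb6 mRNA depended on the length.

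Psmb10, the trypsin-like immunosubunit (Entrez 19171, chr8:105935728-105938392), overlapped between the cell types. Its levels were 7.48, 12.6 and 9.69 mRNA per cell in wild-type MZB, 12.4 and 15.9 in knockout MZB, 8.12 and 7.14 in wild-type FoB, and 6.94, 9.72 and 5.96 in knockout FoB. Its counterpart Psmb7 was at 2.47, 4.17 and 3.25, then 4.31 and 5.07, then 2.76 and 2.24, then 1.98, 3.11 and 1.86. Both genes overlapped between wild-type MZB and wild-type FoB. The ratio Psmb10/Psmb7 was 2.87 to 3.14 in MZB and 2.95 to 3.51 in FoB, with overlap, and 0.998 to 1.22 on GENCODE lengths.

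**Figure D2:**
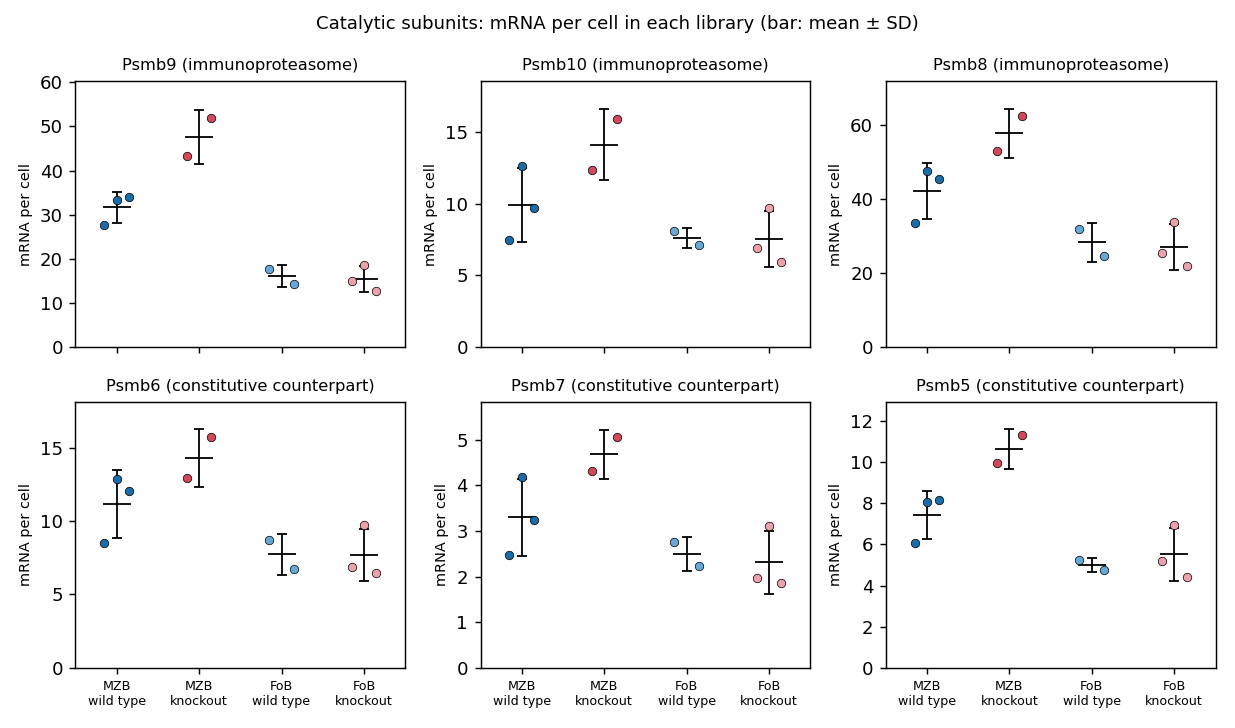
mRNA per cell of the immunoproteasome subunits Psmb9, Psmb10 and Psmb8 (top) and the constitutive counterparts Psmb6, Psmb7 and Psmb5 (bottom) in each library; points are libraries and bars the mean ± SD. For Psmb9 each MZB library (27.7 or higher) is above each FoB library (18.5 or lower), while the other panels overlap. Within each genotype, most genes of the table are also higher per cell in each MZB library.

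Ratios within a library do not depend on its scaling. The ratios that follow, other than those of immunosubunit to counterpart, were chosen after their values had been seen and are given as a description. Psmb9/Psmb8 was 0.827, 0.7 and 0.75 in wild-type MZB and 0.819 and 0.834 in knockout MZB. In FoB it was 0.556 and 0.581 in wild type and 0.590, 0.547 and 0.579 in knockout. All 5 MZB libraries were above all 5 FoB libraries, by 1.38 times on average, although both genes lie in the same gene cluster. Psmb9 and its neighbour Tap1, which encodes a subunit of the peptide transporter, stood at a ratio of 1.42 to 1.52 in MZB and 1.19 to 1.42 in FoB, with overlap. Psmb10/Psmb8 overlapped between the cell types, at 0.213 to 0.266 in MZB and 0.254 to 0.290 in FoB.

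**Figure D3:**
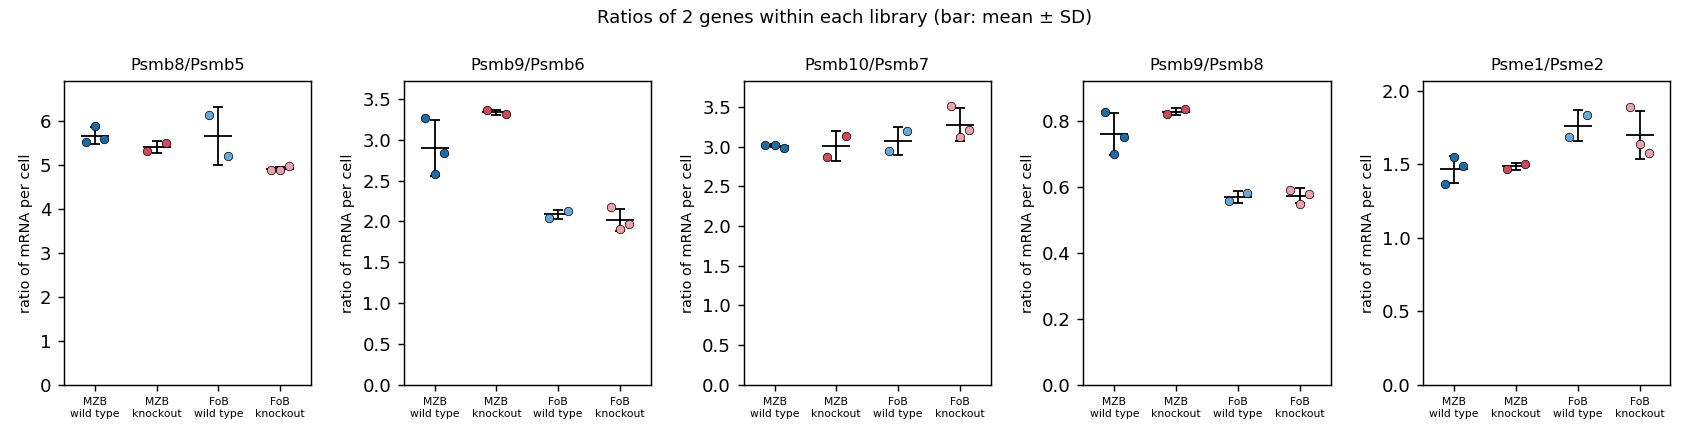
Ratios of mRNA per cell between pairs of genes within each library, by cell type and genotype; points are libraries and bars the mean ± SD. Psmb9/Psmb6 and Psmb9/Psmb8 are higher in each MZB library than in each FoB library, Psme1/Psme2 is lower in each, and the other panels overlap.

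Wild-type MZB held more mRNA per cell of most proteasome genes than wild-type FoB, as they did of most genes. Per cell, 42 of the 48 genes were higher and 0 lower at an adjusted p under 0.05 (limma, Benjamini-Hochberg over all genes), where 84.2% of all genes were higher. The members' median log2 difference was 0.66 beside 0.78 for all genes. Psmb10, Psmb7, Psmc3, Psmd13, Psmd8 and Psmg3 were the 6 that did not pass. Without wild-type FoB library 2 the count was 23. Summed proliferation markers (Mki67, Top2a and Pcna) were 24.6 to 40.03 mRNA per cell in wild-type MZB and 9.42 to 11.49 in wild-type FoB, and their part in the result was not tested.

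Relative to other genes, more proteasome genes were lower than higher in wild-type MZB. After rescaling, 5 genes were higher and 20 lower (limma, Benjamini-Hochberg), where 24.9% of all genes were higher and 25.1% lower. The members' median log2 difference was -0.18 beside 0.00 for all genes. The lower genes included 5 of the 6 ATPases, 5 of the other 11 regulatory subunits, 4 of 7 constitutive beta subunits and 2 of 3 immunosubunits, but 1 of 7 alpha subunits. The split moved with the scaling, to 6 higher and 17 lower when libraries were divided by their summed mRNA, 4 and 21 with limma voom on the recovered reads, and 7 and 11 with factors made from log2(value + 0.3), where the median of all genes was 0.09. Without wild-type FoB library 1 it was 2 and 13, and without wild-type FoB library 2 it was 5 and 11.

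The genes with the smallest p among those lower were 3 regulatory subunits and an assembly factor. Psmd8, a lid subunit, had rescaled levels of 6.24, 6.06 and 6.12 in wild-type MZB and 8.84 and 9.04 in wild-type FoB, a log2 difference of -0.52 ± 0.10 (SE; limma, Benjamini-Hochberg adjusted p = 0.00102). Psmd4, a ubiquitin receptor, had 6.79, 7.99 and 7.48 against 9.71 and 10.2, a log2 difference of -0.41 ± 0.08 (limma, Benjamini-Hochberg adjusted p = 0.00135). Psmd13, another lid subunit, had 5.19, 5.27 and 5.66 against 7.93 and 7.81, a log2 difference of -0.53 ± 0.11 (limma, Benjamini-Hochberg adjusted p = 0.00244). Each of these wild-type MZB libraries was below both wild-type FoB libraries, and the calls of Psmd8, Psmd4 and Psmd13 held under all 18 alternatives run. The annotation puts the gene Gm15542 over part of Psmd13.

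The ATPases, which unfold substrates at the base of the regulatory particle, included genes that were lower and 1 that was higher. Psmc1, the most abundant on the deposited lengths, had rescaled levels of 10.98, 10.5 and 10.2 in wild-type MZB and 13.9 and 13.1 in wild-type FoB, and the least abundant on those lengths, Psmc4, had 6.73, 7.10 and 6.54 against 8.46 and 8.53. Psmc6 went the other way, with 9.66, 9.71 and 9.52 against 8.04 and 8.74. None of these 3 overlapped between the groups. The log2 differences were -0.34 ± 0.08 for Psmc1, -0.31 ± 0.08 for Psmc4 and 0.19 ± 0.07 for Psmc6 (SE; limma, Benjamini-Hochberg adjusted p = 0.00605, 0.00692 and 0.0371). The call of Psmc6 was lost in 9 of 18 alternatives. Psmc2, Psmc3 and Psmc5 were lower, with log2 differences from -0.48 to -0.30.

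Among the other 11 regulatory subunits the deubiquitinase alone was higher. Psmd14, which removes ubiquitin chains as substrates enter, had rescaled levels of 9.76, 10.1 and 9.98 in wild-type MZB and 7.04 and 8.65 in wild-type FoB, with no overlap. Its log2 difference was 0.34 ± 0.09 (SE; limma, Benjamini-Hochberg adjusted p = 0.0115). The most abundant of this group on either length, the scaffold subunit Psmd2, had 11.2, 11.8 and 10.8 against 13.5 and 12.8, and its difference of -0.22 missed the threshold (limma, Benjamini-Hochberg adjusted p = 0.0524, 95% interval -0.41 to -0.03). Psmd11, a lid subunit and the least abundant on the deposited lengths, had 3.28, 3.58 and 3.35 against 4.47 and 4.30, and Psmd3, also of the lid, 4.24, 4.40 and 4.35 against 5.80 and 5.40. Both were below each wild-type FoB library, with log2 differences of -0.34 for Psmd11 and -0.35 for Psmd3 (limma, Benjamini-Hochberg adjusted p = 0.00379 and 0.00264).

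Of the 7 assembly factors, Psmg1 and Psmg2 were higher and Psmg3 was lower after rescaling. Psmg1 and Psmg2 form the heterodimer that starts the alpha ring. Psmg1 (Entrez 56088, chr16:95979933-95990960) had rescaled levels of 2.83, 3.08 and 2.61 in wild-type MZB and 2.13 and 2.22 in wild-type FoB, and Psmg2 had 4.71, 4.83 and 4.94 against 3.36 and 3.64. Neither gene overlapped between the groups, with log2 differences of 0.34 ± 0.10 for Psmg1 and 0.43 ± 0.07 for Psmg2 (SE; limma, Benjamini-Hochberg adjusted p = 0.0133 and 0.000626). Psmg3 and Psmg4 form the other heterodimer, and only Psmg3 passed, in the opposite direction. Psmg3 (Entrez 66506, chr5:139823613-139826894) had 1.68, 1.77 and 1.82 in wild-type MZB against 2.46 and 2.45 in wild-type FoB, a log2 difference of -0.42 ± 0.08 (SE; limma, Benjamini-Hochberg adjusted p = 0.00122). Psmg4 had 3.67, 2.97 and 3.44 against 2.68 and 3.09, with overlap, a log2 difference of 0.20, on the side of Psmg1 and Psmg2, and a 95% interval of the log2 difference from -0.04 to 0.44. The base chaperones did not pass: Psmd5 had 4.55, 5.03 and 4.997 against 4.63 and 4.82, and Psmd9 1.303, 1.23 and 1.31 against 1.41 and 1.24.

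**Figure D4:**
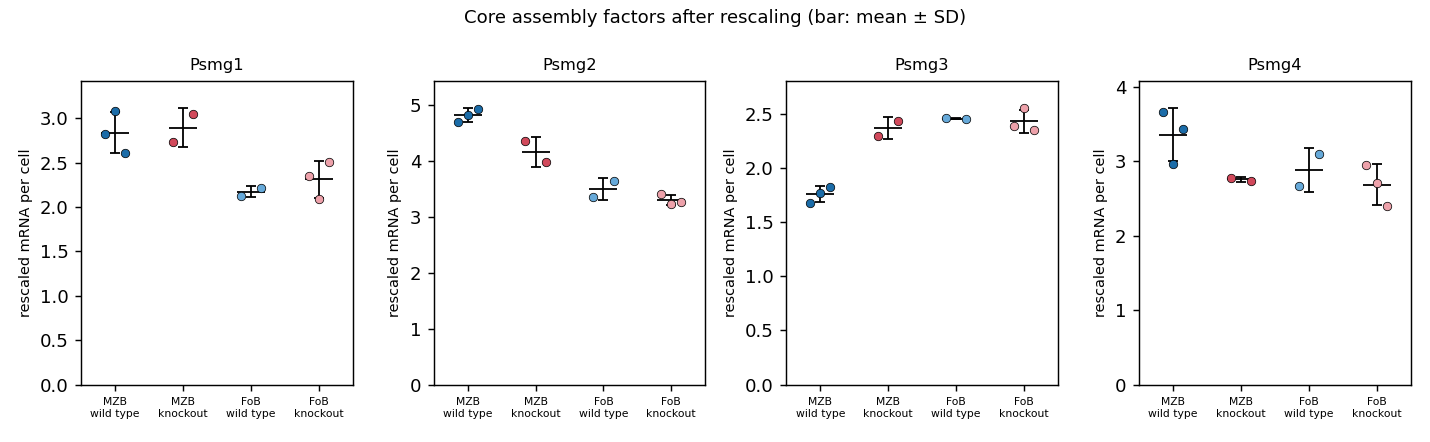
Rescaled mRNA per cell of the core assembly factors Psmg1, Psmg2, Psmg3 and Psmg4 in each library, by cell type and genotype; points are libraries and bars the mean ± SD. Psmg1 and Psmg2 are higher in each MZB library than in each FoB library, and Psmg3 is lowest in the 3 wild-type MZB libraries (1.68 to 1.82).

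Of the 7 alpha subunits, Psma2 alone passed after rescaling, and of the constitutive beta subunits outside the catalytic set, Psmb3 alone, at -0.39 ± 0.11 (SE; limma, Benjamini-Hochberg adjusted p = 0.0145). On the deposited lengths the most abundant alpha subunit, Psma2, had rescaled levels of 12.3, 14.1 and 15.1 in wild-type MZB and 17.3 and 17.7 in wild-type FoB, and the least abundant, Psma5, had 5.78, 6.23 and 5.46 against 6.83 and 6.48. Neither overlapped, but only Psma2 passed, at -0.34 ± 0.11 (SE; limma, Benjamini-Hochberg adjusted p = 0.0304, lost in 5 of 18 alternatives). Psmb1, the most abundant constitutive beta subunit on those lengths, had 16.5, 17.4 and 19.02 against 18.6 and 17.1, with overlap. The catalytic Psmb5, Psmb6 and Psmb7 passed with log2 differences of -0.30, -0.36 and -0.46, and Psmb8 and Psmb10 with -0.31 and -0.52. These calls were lost in 6 of 18 alternatives for Psmb5, 4 of 18 for each of Psmb6, Psmb7 and Psmb8, and 1 of 18 for Psmb10. Psmb9 was at 0.10 with a 95% interval from -0.08 to 0.28.

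The activators behaved unequally. Psme1 had 35.6, 49.5 and 45.8 mRNA per cell in wild-type MZB, 56.3 and 72.0 in knockout MZB, 31.6 and 25.2 in wild-type FoB, and 26.8, 33.6 and 24.9 in knockout FoB. Its partner Psme2 had 26.0, 31.9 and 30.8, then 38.3 and 47.9, then 18.7 and 13.7, then 14.2, 20.5 and 15.8. Both were higher in each MZB library than in each FoB library, as most genes were per cell within each genotype. The ratio Psme1/Psme2 was 1.37 to 1.55 in MZB and 1.58 to 1.89 in FoB, with no overlap. Psme1 overlaps Emc9 in the annotation, and Psme2 has a near-identical retrocopy, Psme2b, so that reads of Psme2 and Psme2b may be divided between them and each value is uncertain.

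Psme3 encodes a nuclear activator and Psme4 a large monomeric activator. Psme3 had 16.9, 24.1 and 20.8 mRNA per cell in wild-type MZB, 22.7 and 26.4 in knockout MZB, 12.0 and 9.98 in wild-type FoB, and 10.4, 11.6 and 8.51 in knockout FoB. Psme4 had 4.10, 5.45 and 4.28, then 4.61 and 5.14, then 2.64 and 1.90, then 2.43, 2.45 and 2.61. Per cell both were higher in each MZB library than in each FoB library, as most genes were within each genotype. After rescaling the wild-type cell types differed by a log2 of 0.01 ± 0.07 for Psme3 and 0.13 ± 0.11 for Psme4 (SE), and neither passed. Psme1 was lower at -0.27 ± 0.07 (SE; limma, Benjamini-Hochberg adjusted p = 0.0116). Psme2b had rescaled levels of 20.3, 20.9 and 20.6 against 16.7 and 16.5, higher by 0.31 ± 0.06 (SE; limma, Benjamini-Hochberg adjusted p = 0.0014). The inhibitor Psmf1 had 1.43, 2.01 and 1.93 mRNA per cell in wild-type MZB, 2.11 and 2.78 in knockout MZB, 1.37 and 0.897 in wild-type FoB and 1.13, 1.28 and 0.917 in knockout FoB, and it did not pass after rescaling.

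The knockout libraries allowed the cell types to be compared again with no library in common. Both comparisons came from the same fit, with a shared estimate of each gene's spread and a shared rescaling reference. Their p-values and calls are therefore not independent. Per cell, all 48 genes were higher in knockout MZB than in knockout FoB (limma, Benjamini-Hochberg), where 97.3% of all genes were. After rescaling 3 genes were higher and 3 lower, where 18.1% of all genes were higher and 17.1% lower. Psmb9 had rescaled levels of 28.1 and 29.5 in knockout MZB and 22.1, 24.3 and 20.3 in knockout FoB, with no overlap and a log2 difference of 0.37 ± 0.08 (SE; limma, Benjamini-Hochberg adjusted p = 0.00431). That call held under all 18 alternatives run. Psmg2 (4.35 and 3.98 against 3.42, 3.23 and 3.27) and Psmg1 (2.74 and 3.05 against 2.35, 2.09 and 2.50) were higher again, by 0.31 ± 0.07 and 0.29 ± 0.10 (SE; limma, Benjamini-Hochberg adjusted p = 0.0073 and 0.0387).

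The 3 genes that were lower belonged to different parts of the particle. Psmc4 had rescaled levels of 6.81 and 7.33 in knockout MZB and 8.55, 9.33 and 7.91 in knockout FoB, Psmb6 had 8.36 and 8.91 against 10.2, 12.7 and 10.3, and Psmd4 had 8.09 and 8.35 against 10.1, 9.77 and 9.12. No gene of the 3 overlapped between the groups, and their log2 differences were -0.27 ± 0.08, -0.34 ± 0.10 and -0.22 ± 0.08 (SE; limma, Benjamini-Hochberg adjusted p = 0.02, 0.0254 and 0.0444). Psmg1, Psmg2, Psmb6, Psmc4 and Psmd4 passed in the same direction in both genotypes, but in the knockout comparison the call was lost in 11 of 18 alternatives for Psmd4, 9 of 17 for Psmg1, 4 of 18 for Psmb6, 3 of 18 for Psmc4 and 1 of 18 for Psmg2. In sign, 35 of the 48 genes (72.9%) went the same way in both genotypes, beside 76.2% of all genes. The counts of higher and lower genes were 1 and 0 without knockout MZB library 1, 2 and 1 without knockout FoB library 2, 4 and 8 without knockout FoB library 3, 2 and 8 with limma voom, 4 and 2 after division by summed mRNA, and 5 and 0 with factors made from log2(value + 0.3). That last scaling moved the median of all genes to 0.12 and of the 48 genes from -0.09 to 0.04.

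**Figure D5:**
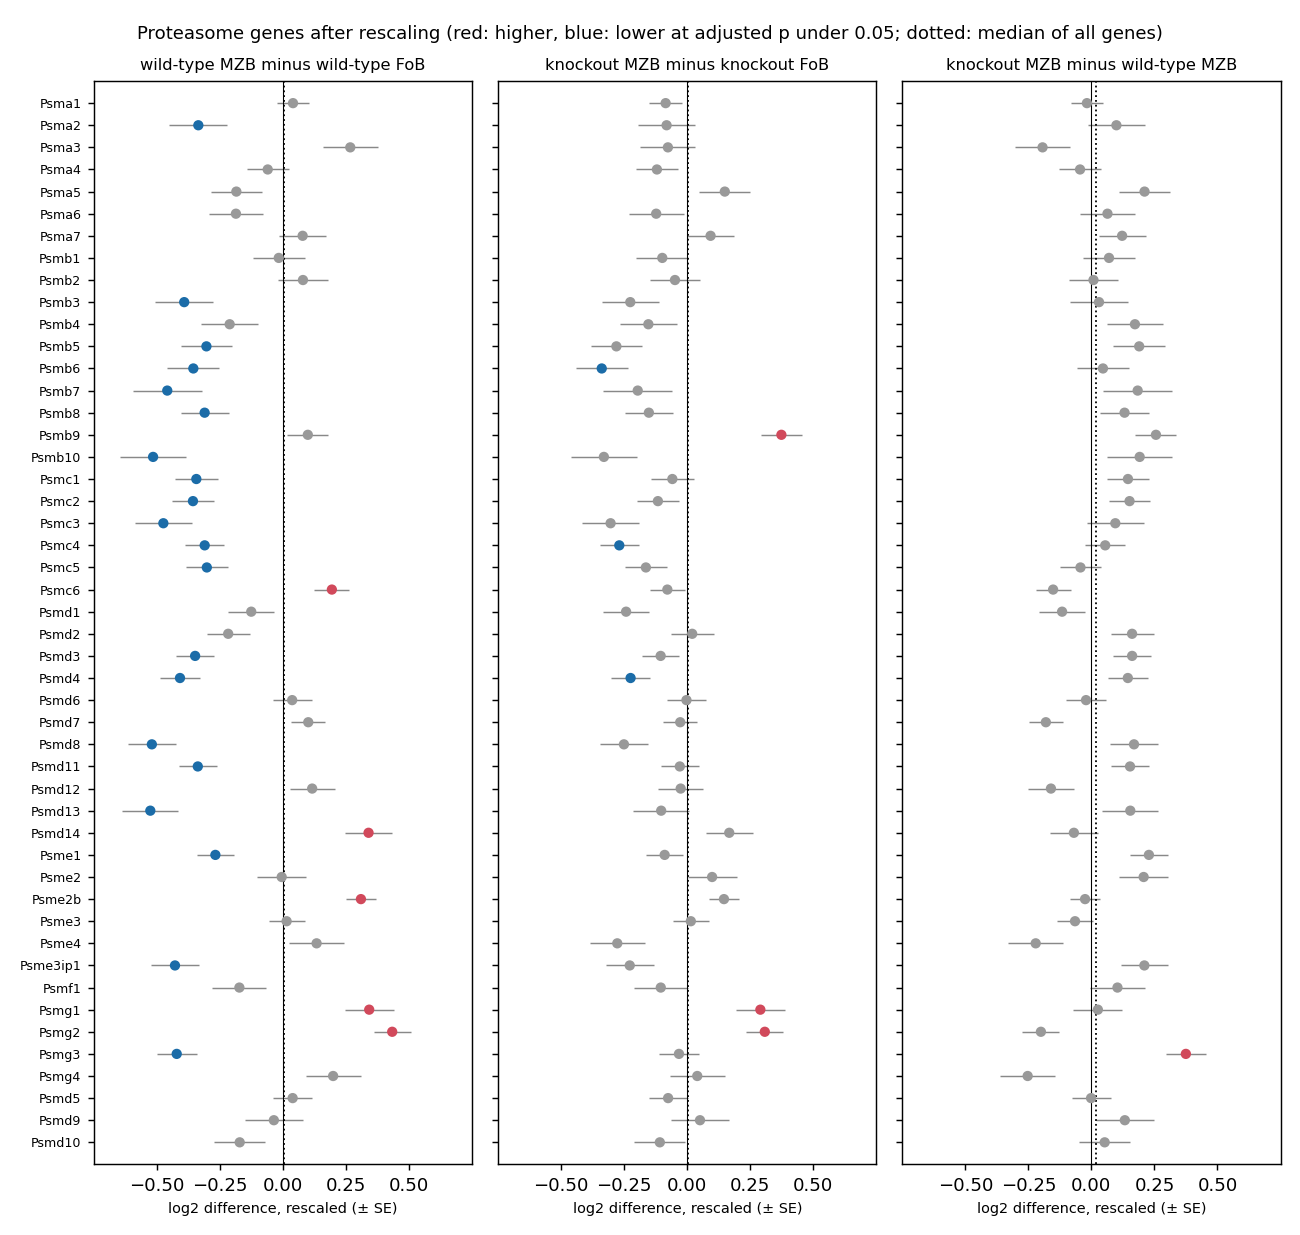
Rescaled log2 differences of the 48 proteasome genes (points, with SE) between wild-type MZB and FoB, knockout MZB and FoB, and knockout and wild-type MZB; red marks genes higher and blue genes lower at a Benjamini-Hochberg adjusted p under 0.05, and the dotted line is the median of all genes. In the wild-type comparison 20 genes are lower and 5 higher, against 3 and 3 in the knockout comparison, and Psmg3 is the only coloured point on the right.

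Members were less spread out than other genes when the cell types were compared after rescaling. The interquartile range of their log2 differences was 0.173 in the knockout comparison, beside 0.424 for all genes and 0.391 for the 7493 genes within the members' range of levels. In the wild-type comparison it was 0.423, beside 0.563 and 0.529. These are descriptions of the spread and were not tested.

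In MZB all 48 genes had a higher fitted mean per cell in knockout than in wild type, as did 8885 of all 9690 genes, and 2 passed the test. Per cell, Psmg3 and Psmb9 were higher and 0 genes lower (limma, Benjamini-Hochberg), where 13.3% of all genes were higher. The log2 differences were 0.69 ± 0.19 for Psmg3 and 0.58 ± 0.21 for Psmb9 (SE; limma, Benjamini-Hochberg adjusted p = 0.00822 and 0.044). The median over the 48 genes was 0.40 beside 0.32 for all genes. In 29 of the 48 genes both knockout libraries were above all 3 wild-type libraries, where 56.9% of all genes were. The count of genes that passed ranged from 0 to 21 when single libraries were left out. Leaving out knockout MZB library 2 gave 0, as did leaving out wild-type MZB library 1. The count was 1 without wild-type MZB library 3 and 1 without knockout FoB library 1, 4 without knockout FoB library 3 or either wild-type FoB library, 5 without knockout FoB library 2 and 21 without wild-type MZB library 2.

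After rescaling Psmg3 alone passed, where 3.36% of all genes were higher. Its rescaled levels were 2.30 and 2.44 in knockout MZB and 1.68, 1.77 and 1.82 in wild-type MZB, beside 2.46 and 2.45 in wild-type FoB and 2.39, 2.55 and 2.35 in knockout FoB. The wild-type MZB libraries were thus below all 7 others. The log2 difference was 0.37 ± 0.08 (SE; limma, Benjamini-Hochberg adjusted p = 0.0246), and the call was lost in 6 of 17 alternatives, with adjusted p from 0.0163 to 0.231. The losses included the fits that left out wild-type MZB library 1 or 2, or a knockout MZB library of either number, while 2 genes passed without knockout FoB library 3. The ratio Psmg3/Psmg4, which needs no scaling, was 0.457, 0.596 and 0.531 in wild-type MZB and 0.792 to 0.981 in the other 7 libraries. It also reflects Psmg4, with rescaled levels of 2.78 and 2.74 in knockout MZB against 3.67, 2.97 and 3.44 in wild-type MZB. Psmg4 did not pass (limma, Benjamini-Hochberg), and the ratio is no separate measure of Psmg3.

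Psmb9 had rescaled levels of 28.1 and 29.5 in knockout MZB against 24.5, 22.6 and 25.1 in wild type, without overlap. Its rescaled difference of 0.26 ± 0.08 did not pass (SE; limma, Benjamini-Hochberg adjusted p = 0.0939), and its per-cell call was lost in 7 of 15 alternatives. Psme1, at 36.5 and 40.9 against 31.5, 33.6 and 33.7, did not pass either (0.23 ± 0.07, SE; limma, Benjamini-Hochberg adjusted p = 0.104). Per cell, markers of other cells and of proliferation were higher in the knockout MZB libraries, as were most genes. Lck was between 3.8 and 4.54 mRNA per cell in wild type and between 7.39 and 8.09 in knockout, and the summed macrophage and monocyte markers were between 2.65 and 4.43 and between 7.6 and 10.38. The dendritic markers were between 10.59 and 13.94 in wild type and between 19.55 and 26.44 in knockout, and the proliferation markers between 24.6 and 40.03 and between 41.93 and 54.75. These ranges of the libraries did not overlap. After rescaling, Lck, Itgb3, 2 of 3 macrophage and monocyte markers and 2 of 2 dendritic markers were higher (limma, Benjamini-Hochberg). Of all genes, 3.36% were higher on that scale. Xbp1 and the 3 proliferation markers did not pass after rescaling. The part of these markers in the result was not tested.

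Markers of follicular cells were also higher in the knockout MZB libraries. Fcer2a, which encodes the CD23 used in the sort, was at 32.5 and 34.96 mRNA per cell in knockout MZB against 11.7, 17.7 and 10.5 in wild-type MZB, beside 80.3 to 107 in FoB. Klf2, a transcription factor of recirculating lymphocytes, was at 7.63 and 10.4 against 3.48, 5.28 and 4.52, and the homing integrin Itgb7 at 15.01 and 19.9 against 3.78, 5.77 and 4.68. None of the 3 genes overlapped between the genotypes. Of the 4 genes of the FoB list, these 3 were higher and the other, Cr2, which the MZB list also holds, was lower after rescaling (limma, Benjamini-Hochberg, where 3.36% of all genes were higher and 1.9% lower), with a median log2 difference of 1.17 per cell and 0.84 rescaled. The list summed to 305.09 to 335.36 mRNA per cell in knockout MZB and 262.31 to 316.2 in wild type, with overlap, since Cr2 is the most abundant of the 4. Of the 6 MZB markers, 0 passed per cell, and after rescaling Cr2 and S1pr3 were lower, with a median over the 6 of -0.34. These calls were lost in 5 of 18 alternatives for Cr2 and 10 of 18 for S1pr3. Psmg3 thus moved toward the FoB level in the same libraries as these FoB markers, and their part in its result was not tested.

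In FoB no proteasome gene passed for the knockout. The count was 0 per cell and 0 after rescaling (limma, Benjamini-Hochberg), where 0.712% and 0.588% of all genes passed, and 0 with limma voom. At an unadjusted p under 0.05 there were 0 genes per cell and 3 of the 48 after rescaling, Psmd13, Psme2b and Psmc5, where 3.85% and 14.6% of all genes were. Psmd13 had rescaled levels of 6.42, 7.68 and 5.50 in knockout FoB against 7.93 and 7.81 in wild type, all lower, with a log2 difference of -0.27 and a 95% interval from -0.51 to -0.03 (limma, Benjamini-Hochberg adjusted p = 0.308). Psme2b had 17.6, 18.2 and 18.9 against 16.7 and 16.5, all higher, with a difference of 0.14 and an interval from 0.01 to 0.27 (limma, Benjamini-Hochberg adjusted p = 0.325). The members' median was 0.00 after rescaling, beside -0.01 for all genes.

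The knockout effect was not shown to differ between the cell types for any of the 48 genes. The difference of effects passed for 0 genes per cell and 0 after rescaling (limma, Benjamini-Hochberg), where 2.34% and 0.31% of all genes passed, and for 0 with limma voom. At an unadjusted p under 0.05 there were 14 of the 48 genes per cell and 10 after rescaling, where 27.5% and 22.8% of all genes were. The smallest rescaled p was that of Psmg3, whose effect was larger in MZB by a log2 of 0.39 ± 0.11 (SE; 95% interval 0.14 to 0.64; limma, Benjamini-Hochberg adjusted p = 0.102). The count per cell was 3 without wild-type MZB library 2 or knockout FoB library 2, and after rescaling it was 1 without knockout FoB library 2.

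Partners of the proteasome outside the name rule were examined as a list of 29 genes, of which 28 were in the table. In wild-type MZB against wild-type FoB, after rescaling, 4 were higher and 9 lower (limma, Benjamini-Hochberg), where 24.9% of all genes were higher and 25.1% lower. Ecpas, a scaffold that binds the proteasome, was higher by 0.53 ± 0.06 and the proteasome-bound deubiquitinase Usp14 by 0.51 ± 0.13, while Nfe2l1, the transcription factor that raises proteasome genes when the proteasome is impaired, was lower by a log2 of -0.51 ± 0.07 (SE; limma, Benjamini-Hochberg adjusted p = 6e-05, 0.0067 and 0.000226). In knockout against wild-type MZB, after rescaling, 0 were higher and 2 lower, where 1.9% of all genes were lower. These were the 2 ubiquitin hydrolases that dock on the regulatory particle, Usp14 at -0.53 ± 0.13 and Uchl5 at -0.49 ± 0.12 (SE; limma, Benjamini-Hochberg adjusted p = 0.0392 and 0.0384), and their calls were lost in 8 of 17 and 4 of 18 alternatives. Per cell 5 of the 28 partners were higher and 0 lower in knockout MZB, where 13.3% of all genes were higher. Among these 5, Pomp, the chaperone that matures the core, rose per cell from 2.48, 3.67 and 3.42 to 4.58 and 5.49, by 0.62 ± 0.19 (SE; limma, Benjamini-Hochberg adjusted p = 0.0211, lost in 3 of 14 alternatives).

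The class I presentation genes that use immunoproteasome products were a list of 21, all in the table. In knockout against wild-type MZB 5 were higher and 0 lower per cell (limma, Benjamini-Hochberg), where 13.3% of all genes were higher. After rescaling 2 were higher and 0 lower (limma, Benjamini-Hochberg), where 3.36% of all genes were higher and 1.9% lower. Tap1 had 29.2 and 36.7 mRNA per cell in knockout MZB and 18.2, 23.4 and 23.3 in wild-type MZB, and Irf1, the interferon response factor known to induce the immunosubunits, 15.3 and 20.8 against 8.95, 10.9 and 10.99. These were the 2 genes that passed after rescaling. Neither overlapped, and their rescaled differences were 0.27 ± 0.06 and 0.46 ± 0.09 (SE; limma, Benjamini-Hochberg adjusted p = 0.0384 and 0.014). The call of Tap1 was lost in 10 of 18 alternatives and that of Irf1 in 1 of 18, without knockout MZB library 2. In wild-type MZB against wild-type FoB 2 were higher and 9 lower, where 24.9% of all genes were higher and 25.1% lower. Nlrc5, a transactivator of class I genes, was higher by 0.88 ± 0.09 and Irf1 lower at -0.52 ± 0.09 (SE; limma, Benjamini-Hochberg adjusted p = 1.09e-05 and 0.000542). Tap2, which lies next to Psmb8, was lower at -0.28 ± 0.08 (SE; limma, Benjamini-Hochberg adjusted p = 0.0121).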

How the data were processed

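The authors deposited a signal value per gene and library, named mRNA per cell in the table's header. STAR and mm10 are named per the submitters' processing notes; no source used here gives versions, the counter, the annotation or the conversion from reads. Of 9690 genes, 9681 were matched to a symbol in RefSeq's GRCm38.p6 tables. Whole reads were recovered for 100% of genes (tolerance 0.005 reads), and totals are 4161051 to 6711847.

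Differences were tested two-sided with limma 3.58.1 in R 4.3.3 (lmFit, contrasts, eBayes with trend) on log2(value + 0.3), all 10 libraries, 1 coefficient per group, Benjamini-Hochberg over all genes, threshold 0.05. Genes needed 0.3 in 2 libraries, which removed 0. On this scale, changes of low genes are understated. A library-wide error enters every gene's test as if it were independent, which can make p-values on the per-cell scale too small. The prior on the spread, taken from genes of similar level, had 86.9 degrees of freedom per cell and 5 after rescaling. Per-cell p-values therefore rest mostly on the spread of other genes. Rescaling divided each library by its trimmed mean log-ratio against the mean library (trims of 0.3 on ratios, 0.05 on levels). Tests were tried on simulated data.

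Groups follow the labels for cell type and LSD1. Genes named are the immunoproteasome subunits and counterparts, the activators, the highest and lowest of each group, and up to 4 genes in each direction by smallest p after rescaling. The members and lists were chosen with earlier results of these data known. Alternatives were other pseudocounts, a filter, no trend, other scalings, limma voom, the replicate number as a block, GENCODE exon lengths for levels, and each library left out. Factors made from log2(value + 0.3) and the GENCODE lengths were chosen after seeing the data. Tables and plots were made in Python 3.11.15 (pandas 2.3.3, matplotlib 3.10.9).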

Additional observations from a re-analysis of the deposited data

How the results depend on the processing

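No call of a proteasome gene after rescaling or between MZB genotypes per cell, and no such call of the genes named from the other lists, changed sign under an alternative run. For knockout against wild-type MZB per cell the count of 2 proteasome genes became 1 at a pseudocount of 0.1, 10 at 1 and 1 among genes with a mean of at least 3 mRNA per cell; after rescaling the count of 1 became 0 with that filter, which leaves out Psmg3, and 0 with limma voom. For knockout MZB against knockout FoB after rescaling, 6 became 10 with limma voom. The cause was not tested. With single libraries left out, the counts ranged from 0 to 21 and 0 to 2 for knockout against wild-type MZB (per cell and rescaled), 0 to 0 on both scales for FoB, 23 to 48 and 15 to 26 for wild-type MZB against FoB, 48 to 48 and 1 to 12 for knockout MZB against FoB, and 0 to 3 and 0 to 1 for the difference of effects. Of the calls in wild-type MZB against FoB after rescaling, 220 held and 30 were lost, counted over proteasome genes and left-out libraries, against 40 and 20 in knockout MZB against FoB after rescaling, and 13 and 7 per cell and 6 and 4 rescaled for knockout against wild-type MZB. With GENCODE exon lengths the mean ratio of Psmb8 to Psmb5 moved from 5.39 to 4.175, of Psmb9 to Psmb6 from 2.56 to 1.175, and of Psmb10 to Psmb7 from 3.10 to 1.08. Deviations of same-numbered libraries from their group means had correlations from -0.19 to 0.187. In a group of 2 libraries these deviations mirror each other, so the check cannot decide whether the numbers pair the samples. With the replicate block the counts for knockout against wild-type MZB were 1 per cell and 0 after rescaling, and the other counts stayed within 1.5 times. Library depth limits Psmg3 and Psmg4 most, at 38 and 31 reads in their lowest library.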
